A study of Bos taurus with 22 samples.

Results

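Holstein steers were given casein, GLP-2, both or neither, their jejunal mucosa was sequenced as messenger RNA, and the casein × GLP-2 interaction asks whether the response to GLP-2 differed between steers infused with water and steers infused with casein. It was taken as the difference between casein + GLP-2 and casein, minus the difference between GLP-2 and control, for every gene tested. All 22 of the 22 steers entered it, grouped by the treatment in the sample titles into 5 control, 5 GLP-2, 6 casein and 6 steers with both agents (casein + GLP-2). A positive interaction therefore means that GLP-2 shifted a gene upward more, or downward less, with casein than with water.

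The steers were 10 to 12 months of age, and all 22 were infused in the abomasum with raw corn starch at 3.94 g/kg body weight daily for 7 d. Control steers were given water in the abomasum and subcutaneous vehicle (bovine serum albumin in saline), and GLP-2 steers were given water and GLP-2 at 100 μg/kg daily. Casein steers received sodium caseinate (1.30 g/kg daily) in the abomasum with vehicle, and casein + GLP-2 steers received both agents. No untreated steers without starch were part of the comparison, so each value is relative to starch-infused animals. Each library came from a different animal. A further GLP-2 steer, of the second body-weight block, was not analysed here. No control steer of the sixth block was available either, and the authors report that a control sample was not sequenced because of low RNA integrity. The integrity of each sample was not used here. Replicate numbers below are the body-weight blocks of the labels.

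Glucagon-like peptide 2 is a gut hormone that enteroendocrine L cells cut from proglucagon, and it acts on a receptor found on enteric neurons, subepithelial myofibroblasts and some endocrine cells rather than on most absorptive cells. Its growth effect on the mucosa is therefore relayed by factors such as IGF1 and ligands of the EGF receptor family. Casein is a milk protein that is cleaved to peptides and amino acids in the small intestine, and these are taken up by brush border transporters. An interaction would appear in genes where luminal protein changes what the hormone does.

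Total counts per steer ranged from 8809666 to 28447810, and no pair of libraries held identical values. The label of jejunal mucosa was set against marker lists, and the villus enterocyte list bears on the mucosa but cannot tell the segment. Genes of ileal bile acid handling are given further below. The 20 tested villus enterocyte genes summed to between 4143 and 140028 CPM per steer (CPM is the count of a gene scaled to library size by edgeR after TMM normalization), with no gene of the list at 0 in any steer. The scrapings also held other tissue. Summed expression of the 22 tested B cell follicle genes was 164.4 to 2666 CPM in control, 126.2 to 172.5 in GLP-2, 142.2 to 2883 in casein and 106.8 to 197.5 in casein + GLP-2. The 16 smooth muscle genes summed to 112.5 to 1808, 159.8 to 1041, 117.5 to 995.0 and 92.0 to 370.2 CPM in the same order. In these bulk samples, fewer cells of a type and less RNA per cell cannot be told apart.

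No gene passed the adjusted threshold for the interaction. The quasi-likelihood test of edgeR was run on 15086 genes with p-values adjusted by Benjamini-Hochberg, and 0 (0%) reached an adjusted p of at most 0.05, 0 reached 0.1, and the smallest adjusted p was 0.956. At an unadjusted p of at most 0.05 there were 645 genes (4.28%), where p-values spread evenly would place 5% below that limit. Of these, 254 (1.68%) had a positive and 391 (2.59%) a negative interaction. DESeq2 gave 2 genes (0.0133% of 15075) at an adjusted p of at most 0.05 and 812 (5.39%) without adjustment. The number without adjustment was 1084 in edgeR when casein replicate 3 was left out (592 positive and 492 negative) and 1004 without control replicate 5 (387 and 617), while the adjusted number was 0 in each of the 22 fits without 1 steer.

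The responses to GLP-2 in both infusions were positively related across the transcriptome, as the plot of the effect in casein against the effect in water shows. Across genes, which are not independent replicates, the log2 fold change of GLP-2 with water and that with casein had a Pearson r of 0.498 and a Spearman rho of 0.533. These 2 contrasts share no steers. The median interaction was -0.03 on the log2 scale with quartiles of -0.37 and 0.26. The precision was limited by the spread between steers. Its median standard error was 0.464, against 0.343 for GLP-2 minus control and 0.314 for casein + GLP-2 minus casein. For 4889 genes (32.4%) the 95% interval of the interaction lay between -1 and 1, so that differences of over 2-fold between both GLP-2 responses fell outside it. For the other genes, a difference of that size was not excluded at this number of steers. Among the 645 genes with the small unadjusted p, 544 (84.3%) had opposite directions of GLP-2 in both infusions, against 4226 of all genes (28.01%), and choosing genes by the p of the interaction favours such a pattern.

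**Figure D1:**
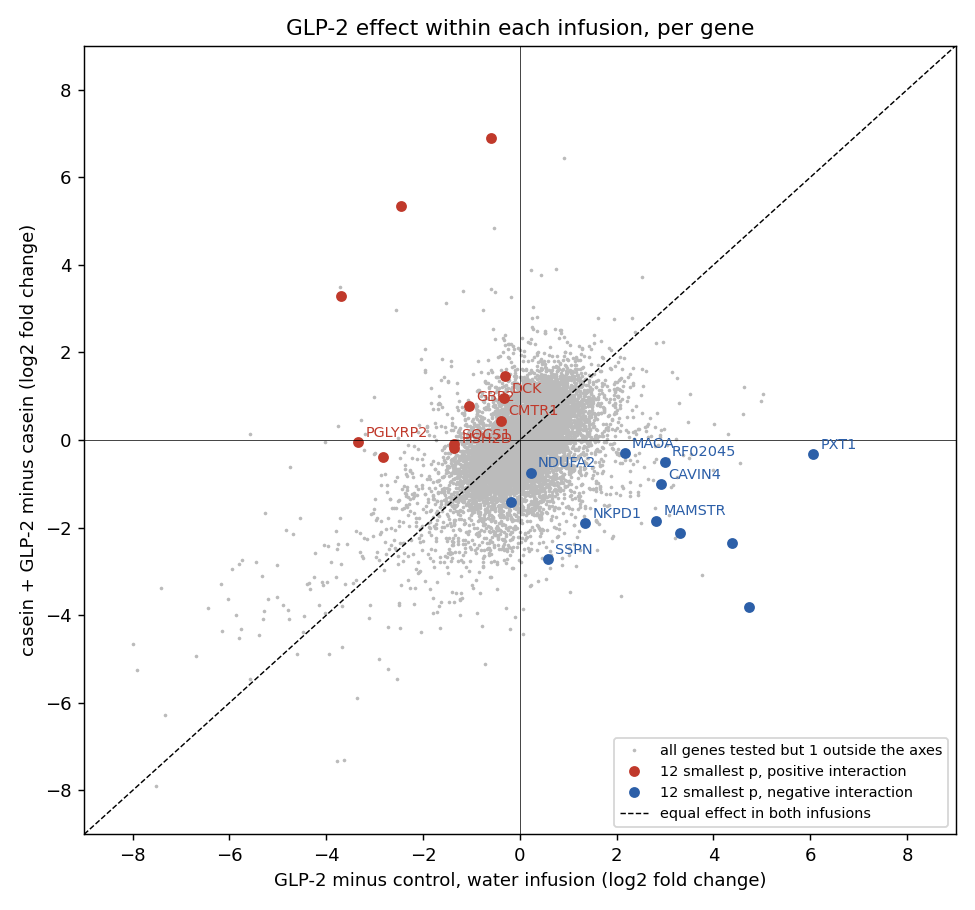
Log2 fold change of GLP-2 against vehicle for each gene tested, with water on the x axis (GLP-2 minus control) and with casein on the y axis (casein + GLP-2 minus casein). Red and blue points are the 12 genes with the smallest unadjusted p among positive and negative interactions, the dashed line marks equal effects, and 1 gene lies outside the axes. Most points follow the dashed line loosely, and most blue points lie to the lower right with GLP-2 effects above 0 in water and below 0 in casein, or near 0 in one of both.

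The 12 genes with the smallest p in each direction are given below by what they are known to do, and their values are a description, since that p chose them. Enzymes that modify drugs, lipids and amines were among the leaders in both directions. ENSBTAG00000054260 (chromosome 25 from 36710741 to 36759920, ARS-UCD1.2) is described in the count table as cytochrome P450 CYP3A24, a member of the family that oxidises drugs and steroids in gut and liver. Its counts were 1286, 1, 0, 1724 and 0 in the control steers, 0 in all 5 GLP-2 steers, 164, 0, 0, 0, 618 and 0 in casein, and 1706, 850, 858, 518, 500 and 284 in casein + GLP-2. The gene was thus at 0 or 1 count in a steer or at 164 and more, and casein + GLP-2 was the treatment in which all 6 steers had it. Casein + GLP-2 was at least 1829-fold higher than GLP-2, with a floor of 3 counts over the group. DESeq2 called its interaction (adjusted p = 4.03e-14), and the adjusted p over its alternatives ran up to 0.999. With a group wholly at 0, the fitted log2 values of 15.1 in edgeR and 29.9 in DESeq2 are no sizes of change.

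Neighbouring genes of the same family on chromosome 25 were looked at after these values had been seen, because reads of near-identical copies can be assigned to one or the other. CYP3A5 (ENSBTAG00000053645) was at 30.6, 25.3, 2.75, 27.6 and 1.40 CPM in control and 2.39, 6.88, 3.74, 17.0 and 14.95 in GLP-2. It ranged from 1.18 to 22.8 CPM in casein (median 9.28) and from 4.25 to 79.0 in casein + GLP-2 (median 21.9). The treatments overlapped, and its interaction was 2.47 (SE 1.16). ENSBTAG00000052665, described as cytochrome P450 subfamily IIIA polypeptide 4, was more abundant, with a median of 316.1 CPM in control, 257.3 in GLP-2, 120.5 in casein and 376.8 in casein + GLP-2, and no steer of it was at 0. Its interaction was 1.95 (SE 1.22).

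ENSBTAG00000006546 (chromosome 23 from 25074938 to 25088616), described as glutathione S-transferase A2, an enzyme that conjugates glutathione to lipid oxidation products, went the other way. Its counts were 23, 11, 68, 50 and 0 in control and 16, 3824, 340, 48 and 474 in GLP-2. With casein they were 324, 75, 13, 271, 52 and 5, and with casein + GLP-2 they were 20, 5, 46, 16, 43 and 22. GLP-2 replicate 3 alone held most counts of its treatment, and the interaction was -6.74 (SE 1.60), or -5.10 without that steer. The neighbouring GSTA1, also named after its values were seen, had an interaction of -1.93 (SE 0.82). MAOA, which oxidises serotonin and other amines, was at 44.5, 98.4, 26.0, 109.3 and 39.7 CPM in control and at 186.7, 587.2, 165.4, 148.2 and 336.9 in GLP-2, without overlap. In casein it ranged from 31.2 to 207.0 CPM (median 111.1) and in casein + GLP-2 from 41.6 to 231.5 (median 71.7). The GLP-2 estimate was thus 2.16 with water and -0.29 with casein, and the interaction was -2.46 (SE 0.74).

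Genes of the interferon response made up several of the positive leaders. GBP2, a guanylate-binding protein induced by interferon gamma in defence against intracellular pathogens, was at 74.5, 53.9, 33.03, 58.7 and 20.8 CPM in control and at 29.8, 23.0, 25.8, 18.3 and 19.8 in GLP-2. It was at 17.96 to 53.9 CPM in casein (median 38.7) and at 32.2 to 85.2 in casein + GLP-2 (median 63.8). Each casein + GLP-2 steer was above each GLP-2 steer, while GLP-2 overlapped control and casein + GLP-2 overlapped casein. The GLP-2 estimates were -1.05 and 0.77, an interaction of 1.82 (SE 0.46, 95% interval 0.87 to 2.76), and over the 22 fits without 1 steer it stayed between 1.61 and 2.06.

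SOCS1, a feedback inhibitor of interferon and cytokine signalling, was at 11.7, 17.6, 14.4, 13.7 and 20.4 CPM in control and at 4.79, 5.97, 8.67, 6.21 and 4.73 in GLP-2. The ranges were 5.08 to 11.5 CPM in casein and 5.16 to 11.03 in casein + GLP-2. Control alone stood apart here. GLP-2 and casein lay below control without overlap, and adding GLP-2 to casein left the range where it was. The interaction was 1.25 (SE 0.36), composed of -1.35 with water and -0.10 with casein. HSH2D, an adaptor of T cell signalling, was at 43.4 to 70.2 CPM in control, 16.5 to 27.7 in GLP-2, 18.3 to 47.1 in casein and 17.8 to 35.7 in casein + GLP-2. Control stood apart from both GLP-2 treatments but overlapped casein. Its interaction was 1.17 (SE 0.34). CMTR1, the enzyme that methylates the first nucleotide of the messenger RNA cap, was at 59.8, 79.9, 63.1, 61.9 and 73.1 CPM in control and at 52.8, 55.2, 47.5, 46.2 and 57.7 in GLP-2. It ranged from 28.8 to 59.5 CPM in casein and from 52.9 to 86.5 in casein + GLP-2. Its interaction of 0.83 (SE 0.24) was the smallest estimate among the 12 positive leaders.

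The lists of interferon genes were described whole, without a test. Genes of a list were measured in the same steers and are not independent of each other, here and in the lists below. Of the 28 tested genes of the type I interferon response, 28 had a positive and 0 a negative estimate, against 7130 positive and 7956 negative over all genes, and 0 passed the adjusted threshold in edgeR. Without adjustment, 5 had p of at most 0.05, namely DHX58, ISG15, XAF1, RSAD2 and MX2, and over all genes 1.68% were positive at that limit. The median interaction of the list was 0.72, made up of a median GLP-2 effect of -0.28 with water and 0.54 with casein, and it was 0.66 to 0.76 under other scalings. With body-weight block as a term the median was 0.58, and 2 genes of the list were positive at the unadjusted limit. DHX58, a sensor protein that modulates recognition of viral RNA, was at 29.5, 55.8, 48.8, 29.2 and 25.6 CPM in control and 23.5, 36.1, 20.5, 28.2 and 28.5 in GLP-2. It was at 18.9 to 27.9 CPM in casein and at 26.7 to 53.3 in casein + GLP-2, and 2 steers of the latter lay within the casein range. ISG15, a ubiquitin-like protein attached to other proteins in the antiviral response, was at 110.6, 231.0, 64.0, 125.8 and 31.9 CPM in control, and at 31.4, 71.1, 36.8, 60.1 and 69.9 in GLP-2. Its interaction was 1.58 (SE 0.59), and DHX58 had 1.02 (SE 0.32).

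Among 24 tested genes of the interferon gamma response, 19 estimates were positive, with a median interaction of 0.53. Of these, 4 had a small unadjusted p (GBP2, SOCS1, IDO1 and WARS), against 1.68% of all genes in that direction. The 5 negative estimates were those of proteasome subunits and proteasome activators that serve antigen processing, such as PSMB10 (-0.55) and PSME2 (-0.20). With body-weight block as a term, 2 genes of the list were positive at the unadjusted limit and its median was 0.45. IDO1, which degrades tryptophan, had an interaction of 1.40 and IFNG itself 1.28 (SE 0.71). The list score of type I interferon genes (mean log2 CPM over the list) spanned 4.13 to 6.01 in control, 4.59 to 5.40 in GLP-2, 4.19 to 5.38 in casein and 4.97 to 6.08 in casein + GLP-2. Control replicate 5 and casein replicate 1 had the lowest type I interferon scores and also the lowest villus enterocyte scores of their treatments. With the smooth muscle score of each steer as a covariate, the median interaction of the type I interferon list was 0.11, and with the B cell follicle score it was 0.80. Both scores come from the same libraries as the genes, and their means differed between treatments. Here and below, fits with these covariates therefore cannot tell tissue composition and response to treatment apart. The part of tissue composition in these values was not tested.

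T cell genes were close to this pattern. Of 26 tested genes of T cells and cytotoxic lymphocytes, 23 had positive estimates and the list median was 0.71. At the unadjusted limit LCK and CD247 were positive while CD28 was negative (-1.49), against 1.68% positive and 2.59% negative over all genes. LCK, the kinase next to the T cell receptor, was at 125.9 to 258.6 CPM in control and 81.1 to 127.5 in GLP-2, with 75.8 to 177.8 in casein and 97.2 to 181.5 in casein + GLP-2. The interaction of LCK was 0.80 (SE 0.32), and that of CD247, the zeta chain of the receptor complex, was 1.12 (SE 0.47), or 0.71 without control replicate 2. The median of the T cell list was 0.02 with the smooth muscle score as a covariate and 0.39 with body-weight block as a term.

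**Figure D2:**
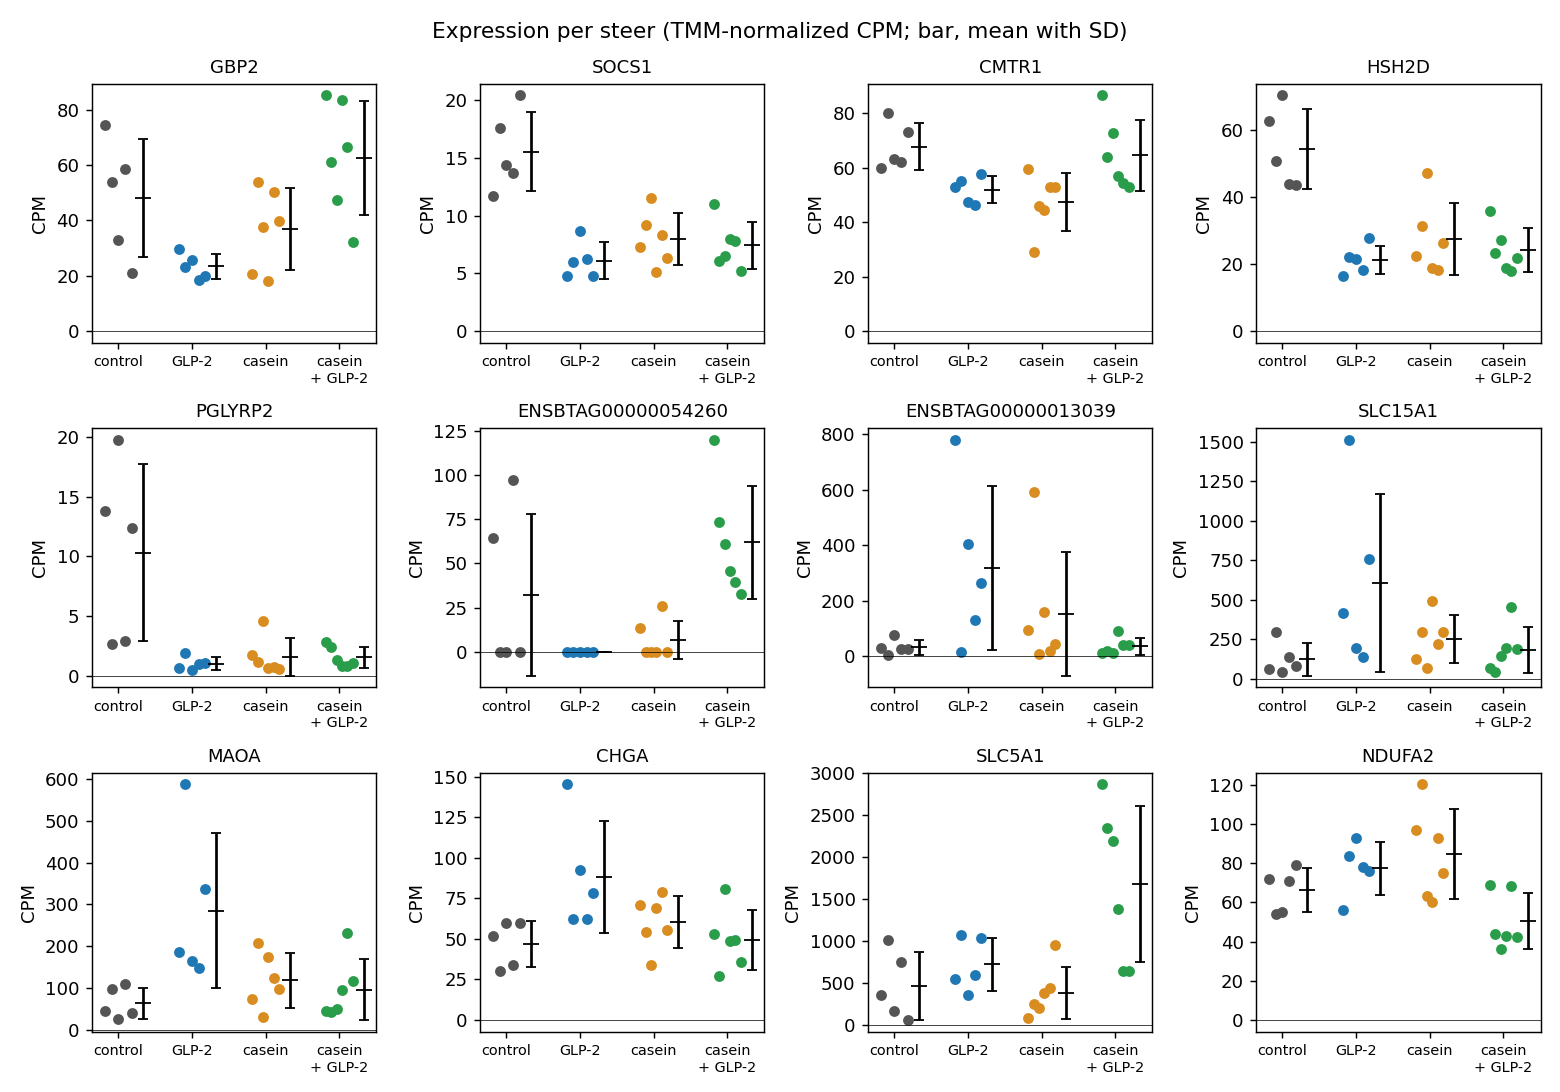
Expression of 12 genes in each steer as TMM-normalized CPM by treatment, where points are steers and the bar is the mean with SD. In GBP2 and CMTR1 the casein + GLP-2 steers lie above most casein steers while GLP-2 lies at or below control, in SOCS1, HSH2D and PGLYRP2 control is highest on average, and ENSBTAG00000054260 is at 0 in all 5 GLP-2 steers.

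Antimicrobial genes of the epithelium were mostly on the negative side, with single steers far above the rest. ENSBTAG00000013039 (chromosome 2 from 132738657 to 132741687), described as membrane associated phospholipase A2, an enzyme of the type that Paneth cells secrete against bacteria, was at 29.4, 4.32, 75.6, 25.1 and 27.0 CPM in control. In GLP-2 it was at 780.1, 15.9, 405.6, 131.8 and 264.5 CPM. It was at 7.52 to 591.0 CPM in casein (median 68.8) and at 10.8 to 90.9 in casein + GLP-2 (median 28.9). All 4 treatments overlapped, and the highest casein + GLP-2 steer had 1026 counts against 9873 in the highest GLP-2 steer. The interaction was -5.42 (SE 1.37), or -4.18 without casein replicate 2. Near it on the chromosome, 2 gene identifiers carry the symbol PLA2G2A, with interactions of -2.93 (SE 1.02) and -2.18 (SE 1.30), and reads of these 3 copies may have been divided among them.

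REG3G, a lectin that binds Gram-positive bacteria, was at 356.3, 23.0, 111.3, 109.2 and 119.0 CPM in control and 1752, 61.5, 961.8, 245.0 and 443.4 in GLP-2. Casein + GLP-2 ranged from 43.8 to 420.1 CPM with a median of 128.9, close to the casein median of 145.3. The interaction of REG3G was -3.44 (SE 1.24) and -2.01 without casein replicate 2, the steer that was also high for phospholipase A2. Over the list of epithelial defence and neutrophil genes, 14 of 21 estimates were negative, and the median was -0.35. Of these, 3 stood at the unadjusted limit (PLA2G2A, REG3G and PGLYRP1), against 2.59% of all genes in that direction. With body-weight block as a term, 0 genes of the list were negative and 1 was positive at that limit, and the list median was -0.71. PGLYRP2, which cleaves bacterial peptidoglycan and is not on that list, had the opposite sign. It was at 13.8, 2.65, 19.8, 2.93 and 12.4 CPM in control and at 0.638, 1.86, 0.493, 0.970 and 1.07 in GLP-2. The ranges of 0.528 to 4.62 CPM in casein and 0.788 to 2.81 in casein + GLP-2 both overlapped GLP-2 and control. Its GLP-2 estimate was -3.34 with water and -0.05 with casein, an interaction of 3.29 (SE 0.88). Over the alternatives that interaction ran from 1.78 to 3.38. Control replicates 2 and 4, the lowest of control in PGLYRP2, also had the lowest B cell follicle scores of control (1.23 and 3.45).

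ENSBTAG00000013055 (chromosome 21 from 34816886 to 34818847), described as duodenase-1-like, a serine protease, rested on 2 steers. Its counts were 866, 11, 0, 22 and 9 in control, 7, 27, 31, 5 and 0 in GLP-2, 12, 13, 0, 27, 7 and 6 in casein and 17, 31, 698, 10, 8 and 10 in casein + GLP-2. Control replicate 1 and casein + GLP-2 replicate 3 were the 2 high ones, and every other steer had at most 31 counts. The interaction of 6.98 (SE 2.06) was 3.33 without control replicate 1 and 4.17 without casein + GLP-2 replicate 3. The pseudogene ENSBTAG00000026400 was of the same kind, with 2836 counts in GLP-2 replicate 4, 726 in casein replicate 6 and at most 32 in each other steer. Its interaction was -8.55 with all steers, -4.01 without GLP-2 replicate 4 and -4.93 without casein replicate 6.

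Peptide and amino acid uptake was the nutrient list with the most negative estimates. Of 26 tested genes, 19 were negative, with a median interaction of -0.95, and 6 were negative and 0 positive at the unadjusted limit. Over all genes, 2.59% were negative and 1.68% positive at that limit. In that list, the median effect of GLP-2 was 1.45 with water and 0.39 with casein. SLC15A1, the proton-coupled transporter of di- and tripeptides in the brush border, was at 60.9, 299.2, 43.7, 139.6 and 83.5 CPM in control. In GLP-2 steers it was at 418.8, 1511, 192.5, 139.9 and 758.7 CPM. It was at 68.5 to 495.7 CPM in casein (median 260.2) and at 43.0 to 453.6 in casein + GLP-2 (median 167.4). GLP-2 overlapped control only between 139.9 and 299.2 CPM, and both casein treatments spanned a similar range. The interaction was -2.73 (SE 0.92, 95% interval -4.64 to -0.83), or -2.02 without GLP-2 replicate 3, and its adjusted p in edgeR over all genes was 0.996.

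The other 5 were NAALADL1, MME, SLC7A9, SLC3A2 and SLC6A19. NAALADL1, a brush border peptidase, had 33, 57, 13, 33 and 28 counts in control and 54, 2728, 92, 26 and 105 in GLP-2. Casein steers had 11 to 87 counts and casein + GLP-2 steers 8 to 74. Its interaction of -3.90 was -1.34 without GLP-2 replicate 3, the steer that also had the highest SLC15A1 and glutathione S-transferase A2. SLC7A9 (-3.65), the light chain of the transporter for cystine and dibasic amino acids, and SLC6A19 (-3.15), the main sodium-dependent carrier of neutral amino acids, had larger estimates than MME (-1.70), the peptidase neprilysin, and SLC3A2 (-1.30), the heavy chain of basolateral amino acid exchangers. Other brush border peptidases had positive or near-zero estimates, such as DPP4 (0.64) and MEP1B (-0.01). The list score was 3.82 to 6.47 in control, 5.55 to 7.93 in GLP-2, 4.30 to 6.04 in casein and 5.64 to 6.69 in casein + GLP-2. With the smooth muscle score as a covariate, 15 of the 26 genes were negative at the unadjusted limit and the median was -1.44. With the B cell follicle score 3 were negative and the median was -0.63. Over all 15086 genes, 493 were negative at that limit with the smooth muscle score and 1436 with the follicle score, against 391 without a covariate.

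Carbohydrases and hexose transporters had 0 of 8 genes at the unadjusted limit, where 4.28% of all genes stood, and a median interaction of 0.45. The difference from the peptide list was not tested. With the B cell follicle score as a covariate, 2 of the 8 were positive at that limit, where 876 of all 15086 genes were, and the median was 1.20. With the smooth muscle score the median was -0.97. SI, the sucrase-isomaltase of the brush border, was at 638.4, 733.4, 222.4, 855.9 and 230.0 CPM in control and at 701.4, 1785, 629.8, 544.9 and 1292 in GLP-2. In casein it was at 177.7 to 1888 CPM (median 625.9), and in casein + GLP-2 at 746.8 to 1309 (median 1151). The medians of both GLP-2 treatments were above those of their vehicle treatments, with overlap in each case. The interaction of SI was -0.27 (95% interval -1.64 to 1.10) and that of MGAM, maltase-glucoamylase, was 0.06 (-2.06 to 2.18). The sign of these 2 estimates changed with the processing. The intervals include differences of over 2-fold in both directions, so that neither an interaction of that size nor its absence was shown.

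SLC5A1, the sodium-glucose cotransporter SGLT1, was at 352.6, 1014, 166.0, 751.1 and 60.6 CPM in control and 551.6, 1072, 357.4, 596.6 and 1036 in GLP-2. It was at 79.9 to 953.1 CPM in casein (median 314.7) and at 646.9 to 2861 in casein + GLP-2 (median 1783). The 3 highest steers of all were casein + GLP-2 replicates 1, 2 and 3. Its interaction was 1.502 (95% interval -0.29 to 3.29), with an unadjusted p of 0.096 in edgeR, and -0.05 with the smooth muscle score as a covariate. SLC2A2, the basolateral glucose transporter GLUT2, had 0.44 (-1.77 to 2.66). SLC2A5, the fructose transporter GLUT5, is carried by 2 gene identifiers. The one on chromosome 14 had an interaction of -0.88 (SE 0.92) and the one on chromosome 16 had 1.45 (SE 1.84). Without GLP-2 replicate 3 the former was -0.16, and it was -1.496 without casein + GLP-2 replicate 1 and -0.57 without casein + GLP-2 replicate 4. The latter was 0.34 without control replicate 4 and 2.44 without casein replicate 6. The latter was at 0 to 2 counts in 4 of 6 casein steers and at 1 to 438 counts in control.

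**Figure D3:**
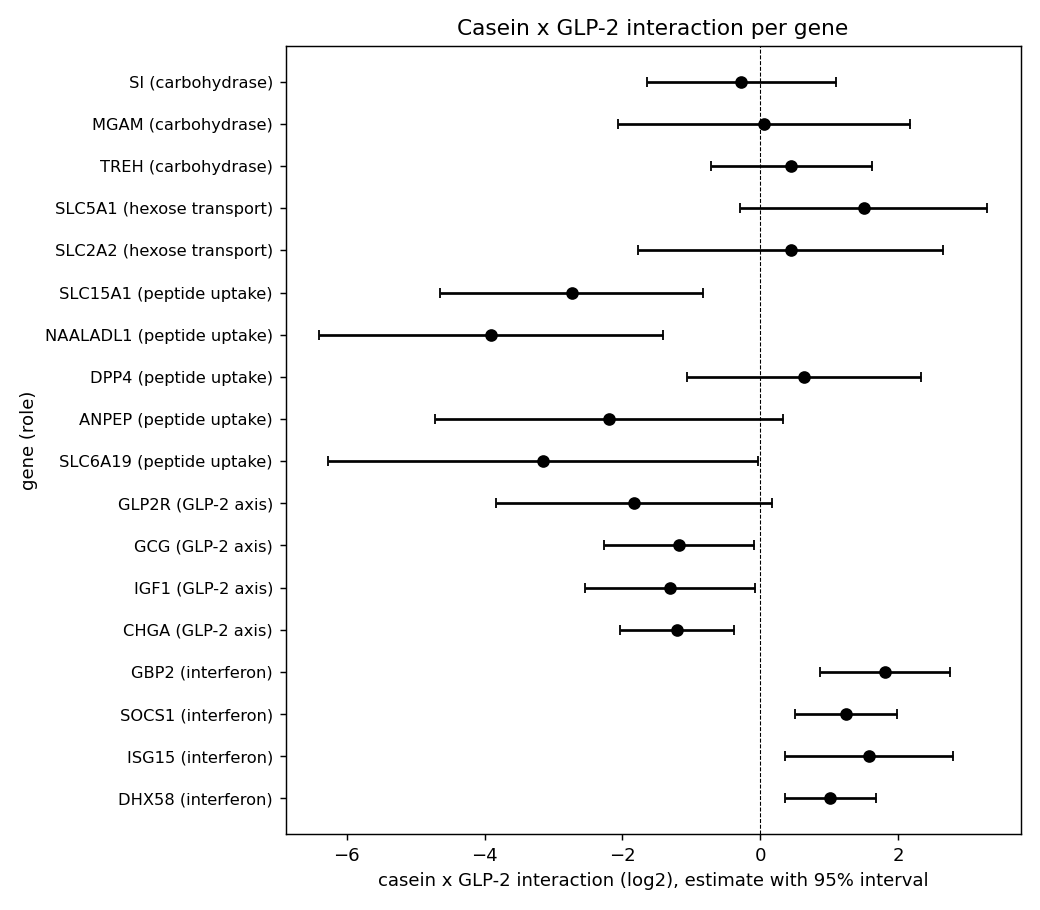
Interaction of 18 genes on the log2 scale, where the point is the edgeR estimate and the line its 95% interval, grouped by role. Carbohydrases, hexose transporters, DPP4, ANPEP and GLP2R span 0. The peptide uptake genes SLC15A1, NAALADL1 and SLC6A19 and the GLP-2 axis genes GCG, IGF1 and CHGA lie below 0. The 4 interferon genes lie above 0, and no gene is past the adjusted threshold.

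Genes that respond to amino acid supply had estimates of both signs. Of 23 tested genes of the amino acid response, 12 estimates were positive and 11 negative, with a median of 0.08. TRIB3, a pseudokinase induced when amino acids are scarce, was at 10.0, 14.8, 10.4, 7.32 and 10.5 CPM in control and at 5.43, 8.54, 5.38, 3.98 and 6.03 in GLP-2. It was at 4.73 to 9.69 CPM in casein (median 6.21) and at 4.25 to 13.1 in casein + GLP-2 (median 9.63). Its interaction was 1.30 (SE 0.40), while ATF5 (-0.95) and SESN2 (-0.68), which are also induced by this response, had negative ones. ATF4 (0.12) and ASNS (0.08), its central factor and the asparagine synthetase, were near 0. In nitrogen metabolism, 2 of 21 genes were at the unadjusted limit, against 4.28% of all genes. CPS1, the first enzyme of the urea cycle, was at 735.5, 553.5, 244.9, 1120 and 822.5 CPM in control and at 1672, 2029, 1125, 1177 and 1843 in GLP-2, with no overlap. Casein steers (597.5 to 1290 CPM) and casein + GLP-2 steers (1044 to 1640 CPM) did overlap, and the interaction was -0.92 (SE 0.41). GPT, alanine aminotransferase, had -1.14 (SE 0.52).

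Within the GLP-2 axis, the hormone gene and a mediator had negative estimates. GCG, which encodes proglucagon, was at 4.41 to 30.02 CPM in control (median 15.8) and at 18.2 to 50.4 in GLP-2 (median 27.4). The ranges were 10.6 to 26.3 CPM in casein and 11.5 to 20.2 in casein + GLP-2. Its interaction was -1.18 (95% interval -2.27 to -0.09) and -0.88 without GLP-2 replicate 1. IGF1 was at 1.05, 1.85, 2.20, 3.10 and 1.16 CPM in control, and at 5.11, 3.52, 5.26, 1.65 and 3.66 in GLP-2. It was at 1.58 to 7.75 CPM in casein and 1.91 to 3.51 in casein + GLP-2, with an interaction of -1.31 (-2.55 to -0.08), or -0.86 without casein replicate 3. GLP2R, the receptor, was low in all treatments (medians of 5.01, 6.70, 7.81 and 5.38 CPM). The highest GLP2R values, 38.0 CPM in casein replicate 5 and 29.6 in GLP-2 replicate 1, were in the steers with the highest smooth muscle score of their treatments. Its interaction was -1.83 (-3.83 to 0.17), or -1.02 without GLP-2 replicate 1, -1.22 without casein replicate 5 and -0.08 with the smooth muscle score as a covariate. Among the EGF receptor family and its ligands, AREG had 2.36 (SE 1.23), and EGFR (0.47), ERBB2 (0.25), ERBB3 (0.43), HBEGF (0.54) and EREG (0.41) had smaller estimates. Of the whole list of 21 genes, 2 were at the unadjusted limit, against 4.28% of all genes, and the median was -0.22.

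CHGA, the granule protein chromogranin A of enteroendocrine cells, was at 51.8, 29.9, 59.5, 34.1 and 59.9 CPM in control and at 145.3, 62.6, 92.6, 62.3 and 78.1 in GLP-2. It was at 34.2 to 79.1 CPM in casein and at 26.9 to 80.8 in casein + GLP-2. GLP-2 was above control in every steer, and the casein treatments overlapped almost wholly. The interaction of CHGA was -1.20 (SE 0.40), and it was between -1.34 and -0.90 without any 1 steer. Among hormone genes of the enteroendocrine list, SST (-0.37), GIP (-0.49) and CCK (-0.17) had smaller negative estimates, while PYY (0.99) and MLN (1.76) had positive ones. Of the 14 tested genes of the list, 9 estimates were negative and 5 positive, and the median was -0.31.

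Crypt genes had negative estimates in 12 of 15, with a median of -0.78. Of these, SMOC2 (-2.58) and PROM1 (-1.54) were at the unadjusted limit, against 2.59% of all genes in that direction. LGR5 (-2.11) and OLFM4 (-2.51), markers of intestinal stem cells, had standard errors of 2.00 and 1.23. SMOC2 was highest in GLP-2 replicate 1 (104.6 CPM), and without that steer the interaction was -1.45 for SMOC2 and -0.80 for PROM1. The crypt median was -0.19 with limma on log2(FPKM + 1) and also with at least 10 counts in every steer, -0.44 with body-weight block as a term, -0.49 with the smooth muscle score and -1.54 with the follicle score. Proliferation genes had 15 positive and 16 negative estimates of 31, 0 at the unadjusted limit and a median of -0.01. That median was -0.84 with the B cell follicle score, where 9 were negative at the limit, and 0.46 with the smooth muscle score. Their median GLP-2 effect was -0.86 with water and -0.95 with casein. Over all 15086 genes, the fit with the follicle score placed 2312 at the limit (876 positive and 1436 negative), against 645 without a covariate. Villus enterocyte genes had 18 positive estimates of 20 and a median of 0.57, with 0 at the unadjusted limit. With the follicle score 11 were positive at the limit with a median of 1.18, and with the smooth muscle score the median was -0.64. The largest was APOA4 (2.32, SE 1.17), an apolipoprotein of chylomicrons, which was at 556.8 to 5414 CPM in casein + GLP-2 and 29.7 to 884.0 in casein. The APOA4 estimate was 1.52 without control replicate 2 and 0.02 with the smooth muscle score as a covariate. Cytosolic ribosomal proteins had 69 negative estimates of 78, at a median of -0.24 and between -0.997 and 0.254, with 0 at the unadjusted limit. With the follicle score 32 were negative at the limit with a median of -0.74, and with the smooth muscle score the median was 0.07. Goblet cell genes had a median of -0.64 over 9, fatty acid oxidation 0.12 over 26 and cholesterol synthesis -0.00 over 24, each with at most 1 gene at the unadjusted limit (PLIN2, 0.62).

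**Figure D4:**
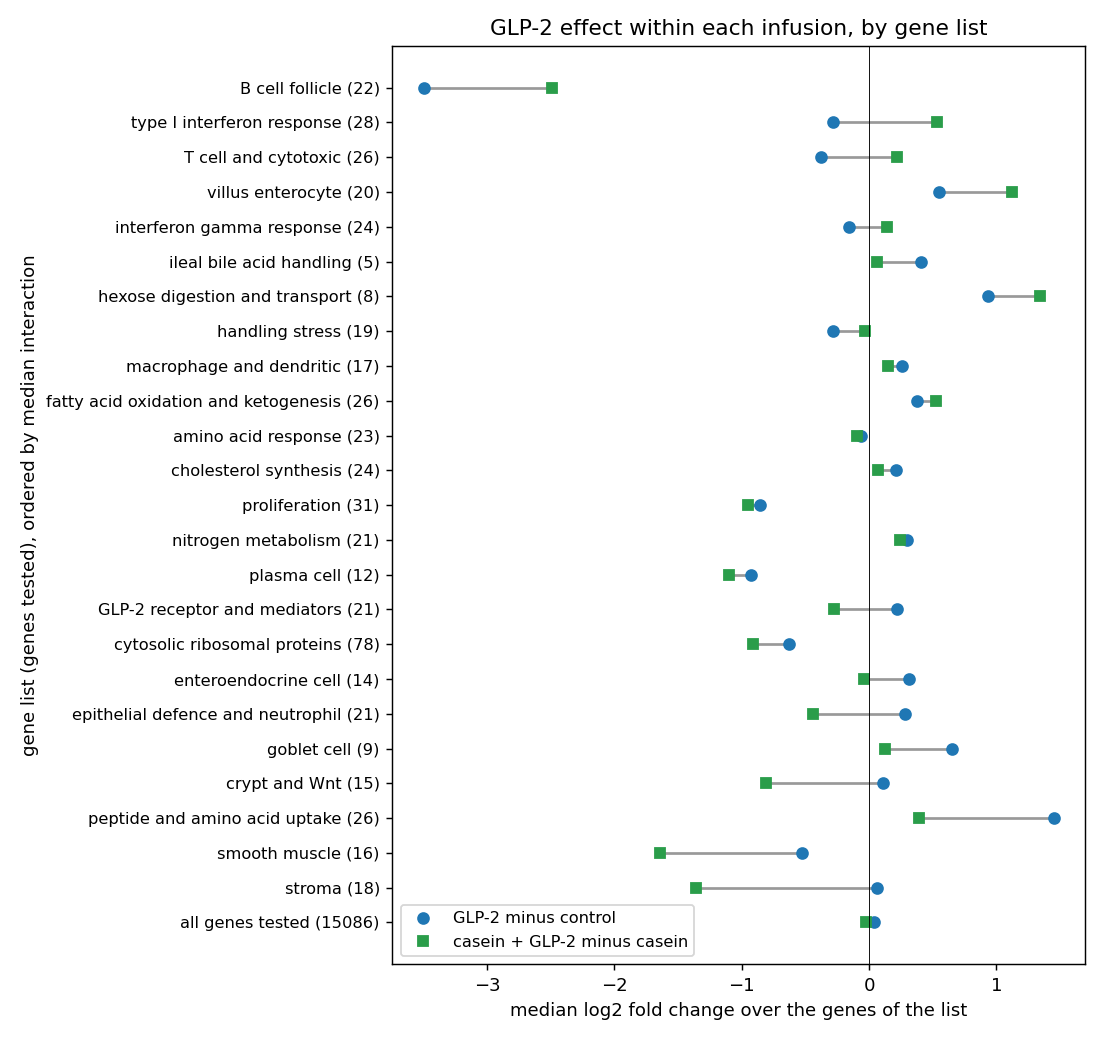
Median log2 fold change of GLP-2 over the tested genes of each list, with water (circles) and with casein (squares). The distance between both marks shows how far apart both medians lie, and lists run from the most positive median interaction at the top to the most negative, with all 15086 genes at the bottom near 0.

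Lists of other cell types in the scraping were described as well, without a test of the lists, and their values stand beside the results above. The stroma list had 18 negative estimates of 18 and a median interaction of -1.30, from -1.82 to -0.18, and smooth muscle had 14 of 16 and -1.02. In neither list was a gene at the unadjusted limit. With the B cell follicle score as a covariate, 16 of 18 stroma genes (median -2.67) and 10 of 16 smooth muscle genes (median -2.62) were negative at that limit. In the same fit 1436 of all 15086 genes were negative there. With the smooth muscle score the stroma median was 0.01. The smooth muscle score was 1.74 to 5.89 in control, 2.63 to 5.22 in GLP-2, 2.46 to 5.14 in casein and 1.81 to 3.76 in casein + GLP-2. The stroma score was 2.50 to 6.62, 4.32 to 6.90, 3.59 to 6.603 and 2.33 to 5.86 in that order. Casein + GLP-2 was lowest in the mean of both scores, with overlap among the treatments. B cell follicle genes had 21 positive estimates of 22 and a median of 1.06, with median GLP-2 effects of -3.50 with water and -2.49 with casein. Their score was 1.23 in control replicate 2 and 3.45 to 6.52 in the other control steers. It was 6.38 in casein replicate 3 and 1.53 to 3.08 in the other casein steers, while GLP-2 (1.12 to 1.78) and casein + GLP-2 (0.558 to 2.55) were low throughout. Plasma cell (median -0.17) and macrophage and dendritic cell genes (0.14) had 0 genes at the unadjusted limit. FABP6, the bile acid binding protein of the ileum, was at 109.7 and 220.6 CPM in control replicates 1 and 3 and at most 18.4 CPM in the other control steers, with an interaction of 2.67 (SE 1.61). It was 1.22 without casein + GLP-2 replicate 5, 1.65 without control replicate 3 and -0.37 with the follicle score. Its list of 5 ileal genes had a median of 0.50. Of 19 genes of handling stress, 3 were positive at the unadjusted limit (ATF3, JUNB and FOS), against 1.68% of all genes. HBQ1, the one globin tested, had an interaction of -0.49. Since the treatments differed in the scores themselves, the fits with a covariate cannot separate these cell types from a response to treatment. The part of these cell types in the gene values was not tested.

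**Figure D5:**
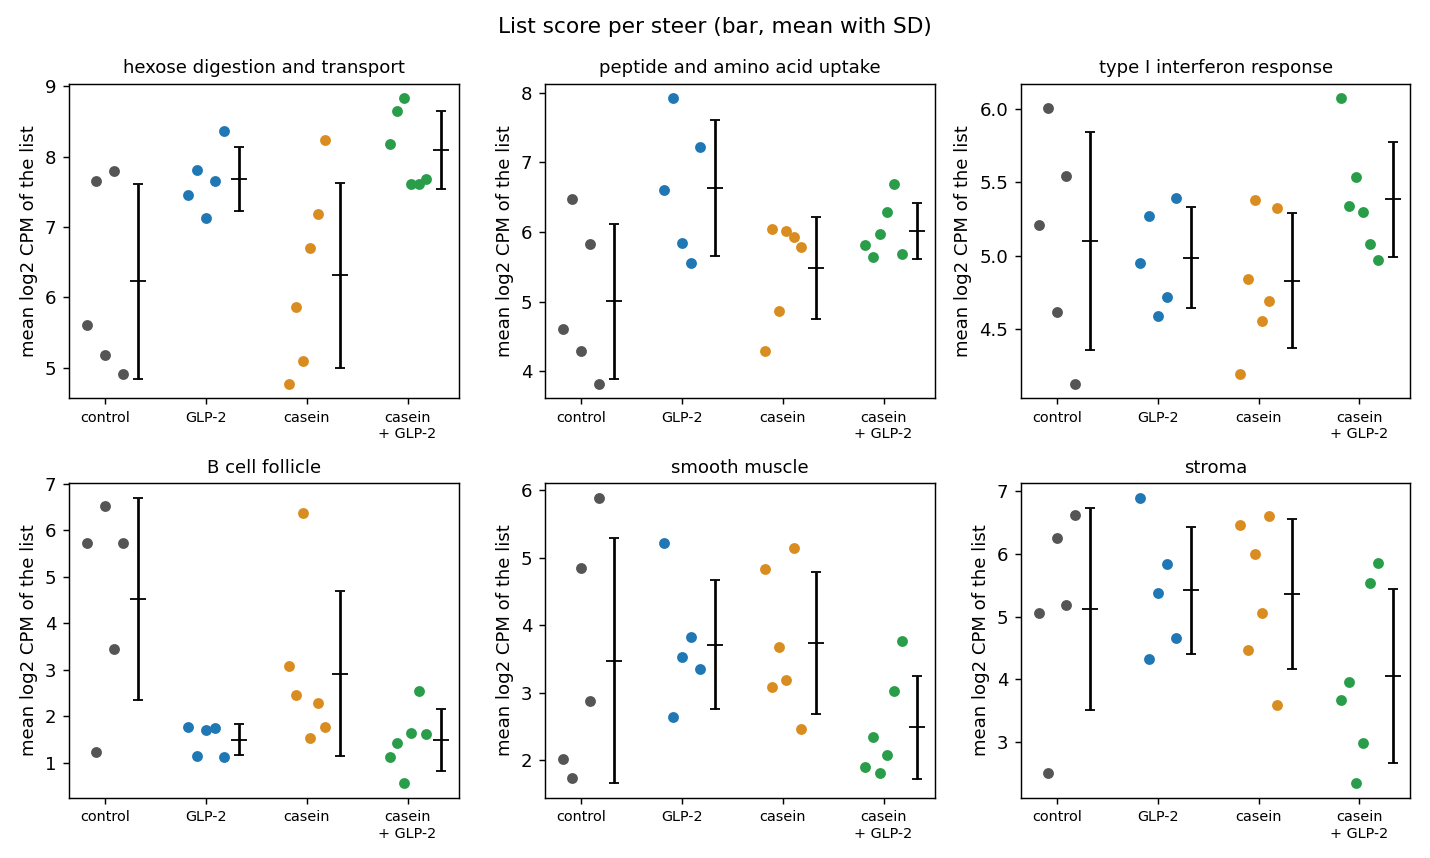
Score of 6 gene lists in each steer (mean log2 CPM over the list) by treatment, where points are steers and the bar is the mean with SD. Peptide uptake is highest in GLP-2 and hexose genes in casein + GLP-2, the B cell follicle score is low in both GLP-2 treatments and spread in control, and smooth muscle and stroma are lowest on average in casein + GLP-2.

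The other leading genes are a mixed set. ENSBTAG00000039559 (chromosome 4 from 105721902 to 105722630), an unnamed gene that the table annotates with an immunoglobulin V-set domain, had the smallest p. Its counts were 32, 11, 33, 2 and 10 in control, 2, 1, 6, 7 and 0 in GLP-2, 0, 0, 0, 0, 0 and 1 in casein and 8, 17, 6, 20, 0 and 10 in casein + GLP-2. On the CPM scale, control was 96.8-fold above casein (95% counting interval 16.9 to 3865) and casein + GLP-2 was 69.0-fold above it (11.9 to 2771). The gene was all but missing with casein alone, and present in 5 of 6 steers with casein + GLP-2. DESeq2 called its interaction (adjusted p = 0.00827, up to 0.999 under the other alternatives), with log2 values of 8.01 in DESeq2 and 7.81 in edgeR, and over the 22 fits without 1 steer the edgeR value was 7.33 to 9.16. ENSBTAG00000053373, an unnamed gene on an unplaced scaffold, was at 0 in all 6 casein steers too. Its counts were 2, 1, 9, 4 and 10 in control, 12, 5, 2, 0 and 0 in GLP-2 and 1, 1, 14, 6, 11 and 33 in casein + GLP-2. Casein + GLP-2 was at least 24.9-fold higher than casein, and control at least 9.53-fold. These intervals and floors cover counting error only.

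PXT1, a gene known from testis, was the reverse case, at 0 in all 5 control steers. GLP-2 had 4, 10, 13, 9 and 10 counts, casein 0, 18, 21, 5, 4 and 8, and casein + GLP-2 3, 6, 25, 6, 1 and 5. Relative to control, GLP-2 was at least 13.6-fold higher, casein at least 17.0-fold and casein + GLP-2 at least 15.8-fold. RF02045, a non-coding RNA, was also low in control, with 2, 2, 0, 3 and 0 counts. CAVIN4, a protein of muscle caveolae, had 6, 1, 0, 0 and 0 there. MAMSTR, a coactivator of MEF2, had 5, 1, 0, 1 and 0. For RF02045, GLP-2 steers had 6 to 19 counts, casein steers 5 to 26 and casein + GLP-2 steers 5 to 12. For CAVIN4, GLP-2 steers had 5 to 20 counts, casein steers 4 to 56 and casein + GLP-2 steers 2 to 15. For MAMSTR the ranges were 3 to 27, 5 to 50 and 0 to 9 in that order. CAVIN4 in both GLP-2 treatments and MAMSTR in every treatment overlapped control. The interactions of RF02045, CAVIN4 and MAMSTR were -3.49, -3.92 and -4.66. Over the alternatives they ran from -3.88 to -2.29, from -4.50 to -0.44 and from -4.89 to -0.57.

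For NKPD1 and ENSBTAG00000019994, casein + GLP-2 lay below casein without overlap. NKPD1, a protein with an NTPase domain, was at 1.80, 0.353, 0.157, 0.901 and 1.32 CPM in control and 2.39, 1.57, 3.49, 3.78 and 0.534 in GLP-2. It was at 2.00 to 7.48 CPM in casein and 0.422 to 1.95 in casein + GLP-2, and the GLP-2 estimates were 1.35 with water and -1.90 with casein, an interaction of -3.25 (SE 0.81). ENSBTAG00000019994 (chromosome 2 from 91270021 to 91271660), without a description, was at 9.26 to 19.4 CPM in control and 11.8 to 15.5 in GLP-2. It was at 15.4 to 33.9 CPM in casein and 5.25 to 11.9 in casein + GLP-2, with an interaction of -1.24 (SE 0.34). Casein and casein + GLP-2 overlapped in SSPN, NDUFA2, DCK and ENSBTAG00000053238. SSPN, the sarcospan of the dystrophin complex, had GLP-2 estimates of 0.58 with water and -2.72 with casein. NDUFA2, a subunit of respiratory complex I, was at 53.9 to 79.1 CPM in control, 56.1 to 93.0 in GLP-2, 60.2 to 120.3 in casein and 36.3 to 68.9 in casein + GLP-2. Its interaction was -0.97 (SE 0.29). On the positive side, DCK, the kinase that salvages deoxynucleosides, was at 40.1 to 79.2 CPM in casein and 53.0 to 172.9 in casein + GLP-2, against 56.6 to 119.7 in control and 49.7 to 79.1 in GLP-2. The interaction of DCK was 1.28 (SE 0.37). ENSBTAG00000053238, described as the kalirin RhoGEF kinase, had a median of 7.14 CPM in control, 6.31 in GLP-2, 4.08 in casein and 12.2 in casein + GLP-2, with an interaction of 1.77 (SE 0.46).

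ENSBTAG00000054072, described as adrenomedullin 2, a vasodilator peptide, was at 31.9, 12.9, 94.5, 7.88 and 44.5 CPM in control and at 4.23, 6.42, 6.49, 3.69 and 6.18 in GLP-2, without overlap. The ranges were 3.91 to 24.1 CPM in casein and 5.41 to 10.3 in casein + GLP-2, and both overlapped control. Its interaction was 2.44 (SE 0.71), and the fit with the B cell follicle score gave 1.63. Among the 24 leading genes, GLP-2 and control did not overlap in 8, casein + GLP-2 and casein in 4, casein and control in 7, and casein + GLP-2 and GLP-2 in 2. These counts are a description, since the same steers chose the genes. The share of all tested genes without overlap was not computed, so the counts cannot be set against it.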

How the data were processed

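RNA-seq of jejunal mucosa from 22 steers was used. The authors deposited gene counts made, per the labels and methods, with HISAT2 2.0.5, StringTie 1.3.3b and featureCounts 1.5.0-p3 on ARS-UCD1.2, with no normalization. The deposited FPKM values, scaled by the authors to gene length and depth, served alternatives only, and gene lengths were not used for tests. Groups came from the sample titles. Of 27570 genes, 15086 passed filterByExpr (minimum count 10). Counts were scaled by TMM and fitted with edgeR 4.0.16 (glmQLFit, R 4.3.3) over the 4 treatments with no covariate, and p-values were Benjamini-Hochberg adjusted. Standard errors are the estimate over its quasi-likelihood t value. Named genes were the 12 smallest p in each direction, genes DESeq2 1.42.0 called, the 2 smallest p in each of 25 lists with measured genes, and 9 genes of hexose uptake and the GLP-2 axis. Other list members, and neighbouring copies, were named after their values were seen. Members and lists were chosen with earlier results of these data known. Alternatives were DESeq2, limma 3.58.1 on log2(FPKM + 1) or log2(FPKM + 0.1), other scalings and filters, robust fitting, the replicate block, 2 covariates and leaving out each of the 22 steers. Scripts were tested on simulated data. Genes of the mitochondrial list had no match by symbol and were not used here.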

Additional observations from a re-analysis of the deposited data

Results flagged for a closer look

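Of 127 sets of steers tested for a value far from the rest of its treatment, 8 were picked out, and chance gives about 1 in 20. Values are log2 CPM. ENSBTAG00000013055 was at 5.63 in casein + GLP-2 replicate 3, with the next steer at 1.499. ENSBTAG00000026400 was at 6.87 in GLP-2 replicate 4 (next 0.55) and at 6.26 in casein replicate 6 (next 1.30). SSPN was at -1.30 in control replicate 2, below the next steer at 0.69. SI was at 9.54 in casein + GLP-2 replicate 6, with the next at 10.1. SLC2A5 on chromosome 14 was at -1.66 in casein + GLP-2 replicate 4, where the next was 2.93. SLC2A5 on chromosome 16 was at -1.08 in GLP-2 replicate 3 (next 3.44) and at -1.51 in casein + GLP-2 replicate 1 (next 4.01).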

How the results depend on the processing

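The number of genes past the adjusted threshold was 0 in edgeR and limma under every alternative and in each of the 22 fits without 1 steer, and 2 in DESeq2 with and without independent filtering. At the unadjusted limit, 1358 genes stood without a filter on low counts, 2312 with the B cell follicle score as a covariate, and 461 to 1084 without 1 steer. Signs changed for SLC5A1 (-0.049), PDGFRB (0.32), MGAM (-1.68) and SLC2A2 (-1.51) with the smooth muscle score, and for FABP6 (-0.37), SLC51B (0.29) and SI (0.31) with the follicle score. SI was 0.04 with either FPKM pseudocount (0.0359 with 1 and 0.0362 with 0.1). MGAM was -0.013 with upper quartile scaling and -0.34 and -0.39 on FPKM with 1 and 0.1. Without 1 steer SI ran from -0.49 to 0.28, MGAM from -0.62 to 0.62 and SLC2A2 from -0.12 to 1.29. The cause of these shifts was not tested. With the smooth muscle score, the medians of the hexose (-0.97), villus (-0.64) and stroma (0.01) lists also changed sign. So did those of the plasma cell (0.46), proliferation (0.46), fatty acid oxidation (-0.31) and ribosomal protein (0.07) lists. The ileal bile acid list (-0.84) and the list of GLP-2 receptor and mediators (0.006) changed sign as well.

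The replicate number is a body-weight block. Deviations of 30 pairs of steers sharing a block had a mean correlation of 0.0331 (from -0.464 to 0.387), and 6 of 22 steers correlated best with their own block. With the replicate block, 0 genes passed the adjusted and 499 the unadjusted limit, SI was 0.065 and MGAM -0.14. Depth limits the leading genes with few or no counts in a treatment, and the estimate of ENSBTAG00000054260 ran from 6.31 to 29.9 over the alternatives.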
